A study of Rattus norvegicus with 4 samples.

Results

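The genes described here prepare and load the peptides that major histocompatibility complex (MHC) class I molecules show at the cell surface. They are 10 rat genes (B2m, Calr, Tapbp, Tap1, Tap2, Psmb8, Psmb9, Psmb10, Psme1 and Psme2) of 35655 genes on the array, counted by distinct name. They were found as all non-control probes that the scanner files name for one of these genes, which gave 13 probes on 22 spots: 9 genes had 1 probe each and B2m had 4. The samples were olfactory ensheathing cell cultures, the glia that wrap olfactory axons, from male Fischer rats. Each culture was split by fluorescence-activated sorting into a p75High and a p75Low population by their level of p75, the low-affinity neurotrophin receptor encoded by Ngfr, with a stated purity of 98% per sort. Both populations carried no other treatment or genotype in the labels. There were 4 biological replicates, each a pair of populations from 1 sort, hybridised together on 1 two-colour array with p75High in Cy5 and p75Low in Cy3. No array had the dyes exchanged, so dye and population cannot be told apart. The age of the animals and the number of animals behind each culture are not given in the sources used here.

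Class I molecules consist of a polymorphic heavy chain, the constant light chain beta-2-microglobulin (B2m) and a short peptide. Proteasomes cut cytosolic proteins into such peptides. Cells exposed to interferon-gamma exchange the constitutive catalytic subunits for Psmb8, Psmb9 and Psmb10 and make the PA28 cap from Psme1 and Psme2. The transporter formed by Tap1 and Tap2 moves peptides into the endoplasmic reticulum, where tapasin (Tapbp) and calreticulin (Calr) hold the empty class I molecule until a peptide is bound. Resting neural cells generally make little class I, while microglia and macrophages make more.

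The array reads each gene through oligonucleotides of 60 bases, and the sequences below show what was read for 6 of these genes. For B2m, both probes that gave the bright and repeatable values cross an exon junction and reach the stop codon, shown in capitals. Only their coding ends are given, followed by the probes of the PA28 subunits Psme1 and Psme2, of the catalytic subunits Psmb8 and Psmb9, and of Tap1. The ratios of these other genes changed sign between arrays, for Psme1 only through an array where neither channel was well above background.
B2m, A_44_P214040: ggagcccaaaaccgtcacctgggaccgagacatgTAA
B2m, A_43_P11442: tgggaccgagacatgTAA
Psme1, A_43_P11888: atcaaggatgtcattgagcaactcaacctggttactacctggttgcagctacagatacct
Psme2, A_44_P554698: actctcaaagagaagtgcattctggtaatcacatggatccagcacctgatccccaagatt
Psmb8, A_44_P182020: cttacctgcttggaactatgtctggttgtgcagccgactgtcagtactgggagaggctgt
Psmb9, A_44_P301963: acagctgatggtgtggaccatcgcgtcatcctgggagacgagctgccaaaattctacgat
Tap1, A_44_P451916: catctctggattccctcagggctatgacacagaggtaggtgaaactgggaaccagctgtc
Both B2m junction probes overlap by 41 bases, so they are not independent readings of the transcript.

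The arrays were deep enough to read most of these genes. An array read 22463 to 28062 probes above background for p75High and 23042 to 26172 for p75Low. Ngfr, which checks the sort, had a log2 ratio of p75High over p75Low of 5.80 ± 0.53 (SD, n = 4), with an adjusted p of 0.0262 in limma. Over all 22193 genes tested, 69 were higher and 97 lower in p75High at a Benjamini-Hochberg adjusted p under 0.05. Without any 1 of the replicates, 0 genes passed in limma, with 1885 to 2374 at an unadjusted p under 0.05. Markers of other cells differed as well. Of 16 microglia and macrophage markers tested, 10 were lower in p75High and 0 higher, with a median log2 ratio of -4.62. Their summed level on a linear intensity scale was 13570 to 21900 in p75High and 317800 to 485200 in p75Low, and none of the 16 was below background on every array of either population. The 14 ensheathing and Schwann cell markers summed to 41810 to 54830 in p75High and 5026 to 16130 in p75Low, so the p75Low population, also labelled as ensheathing cells, read high for macrophage markers and lower for ensheathing markers.

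None of the class I peptide processing genes passed the test. Of the 10 genes, 8 had a probe bright enough to test, and 0 of these 8 reached an adjusted p under 0.05 in limma, against 0.748% of all genes tested. At an unadjusted p under 0.05, 1 of 8 was lower in p75High and 0 higher, against 6.91% of all genes on the lower side. Negative ratios on all 4 arrays were seen in 1 of 8, against 13.0% of all genes read on all 4 arrays, and p75Low levels that lay above every p75High level in 1 of 8, against 3.76%. B2m was that gene in each count. The means of 6 genes were below 0 and of 2 above 0, their median log2 ratio was -0.45 beside -0.03 over all genes tested, and their adjusted p-values ran from 0.350 to 0.855.

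**Figure D1:**
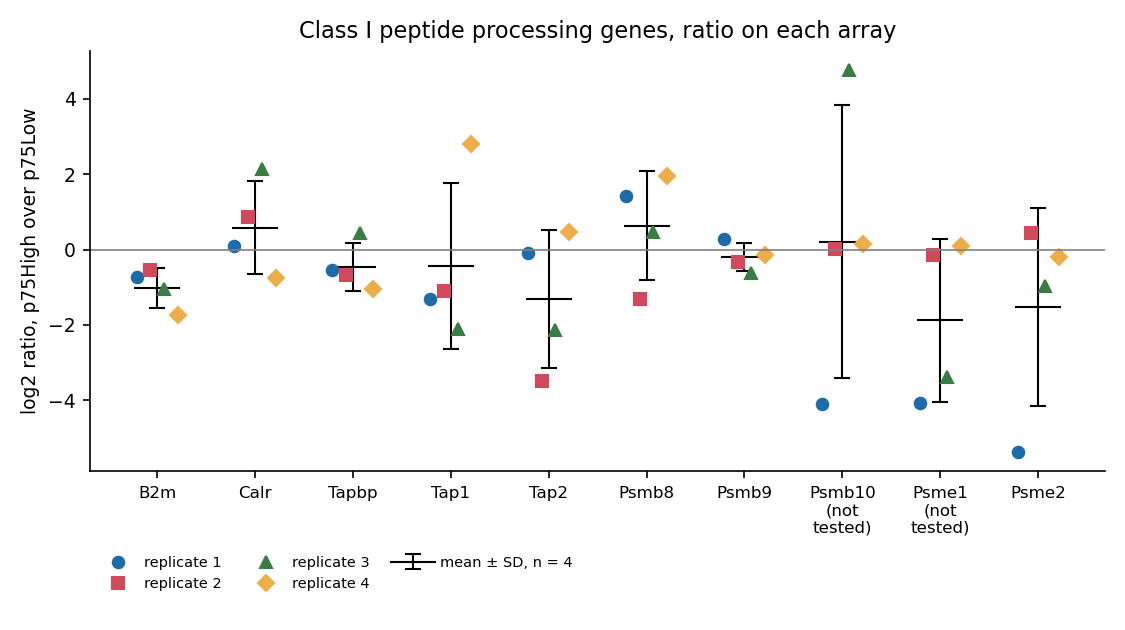
Log2 ratio of p75High over p75Low on each of the 4 arrays (coloured symbols, 1 per replicate) for the 10 genes, with the mean and SD as black bars; a value of 0 means equal signal in both populations. B2m lies below 0 on every array, between -1.74 and -0.53, while the points of the other genes fall on both sides of 0. The only Psme1 point above 0 is that of replicate 4, where neither channel was well above background.

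B2m, the light chain shared by all classical class I molecules, was bright in both populations. Its brightest probe, A_44_P214040 (rn4 chr3:108931019-108932504, an interval of 1486 genomic bases for 60 probe bases, so it joins exons), gave p75High levels of 14.41, 14.98, 14.39 and 14.46 in replicates 1 to 4 as log2 intensity. The p75Low levels were 15.15, 15.51, 15.45 and 16.20. Each p75Low level was thus above all 4 p75High levels, and the populations did not overlap. The log2 ratios were -0.74, -0.53, -1.06 and -1.74, with a mean of -1.02 ± 0.53 (SD, n = 4), or 2.02-fold lower in p75High. The 95% interval of the mean was -1.90 to -0.13, the unadjusted limma p was 0.0319 and the adjusted p 0.350, so the difference did not survive correction over all genes. In bulk RNA of this kind, fewer cells that make a transcript and less transcript per cell cannot be told apart. The microglia and macrophage markers, summed above, were also higher in p75Low on every array for 15 of the 16, and their part in the B2m ratio was not tested.

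The second junction probe of B2m, A_43_P11442 (rn4 chr3:108931038-108932523), was printed on 10 spots of each array and shows how finely an array could be read. Between spots of the same array its log2 ratio varied with an SD of 0.0595, 0.0466, 0.0475 and 0.0541 in replicates 1 to 4. Between the 4 replicates it varied with an SD of 0.45 around a mean of -1.04 (-0.86, -0.55, -1.12 and -1.62). The spread between replicates, which differ in culture, sort, amplification, labelling and array, was larger than the spread between spots of 1 array, and the order of the replicates was the same as with the first probe. Its levels did not overlap either, with p75High at 13.46, 13.96, 13.22 and 13.37 and p75Low at 14.32, 14.51, 14.33 and 14.99.

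The remaining B2m probes were designed on an expressed sequence tag and lie 1148 and 1272 bases further along the chromosome, in the direction of transcription. A_44_P122632 (rn4 chr3:108933671-108933729) gave ratios of -4.24, -6.18, -1.17 and -1.82, a mean of -3.35 ± 2.30. All 4 values were negative, but in replicate 4 its p75High signal was not well above background. A_44_P535612 (rn4 chr3:108933795-108933854) gave -1.83, -2.16, 0.73 and -1.91, a mean of -1.29 ± 1.35. Replicate 3 alone was above 0 there. On both of these probes the levels of the populations overlapped. The 4 B2m probes thus had negative means throughout and differed in size, and the adjusted p of B2m was 0.191 when the median over its probes replaced the brightest probe.

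**Figure D2:**
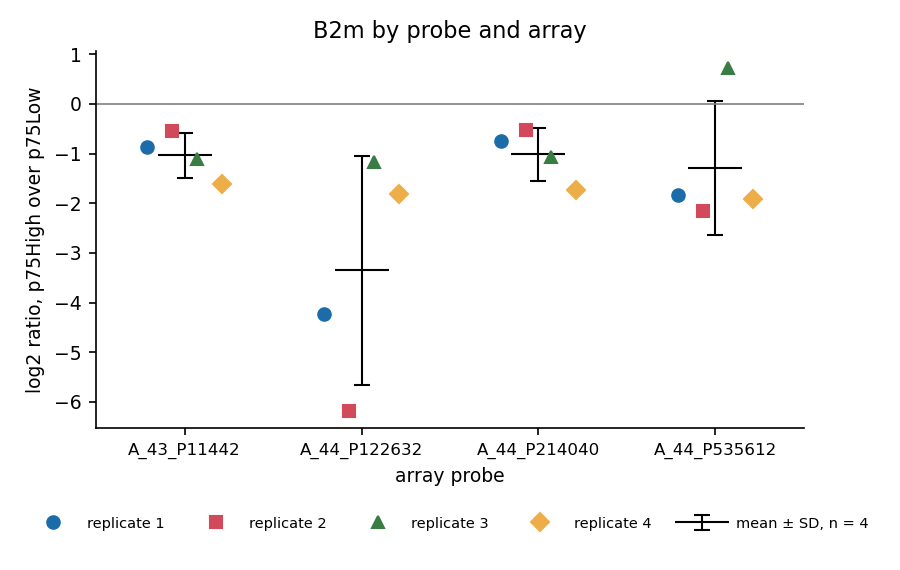
Log2 ratio of p75High over p75Low for each of the 4 B2m probes on each array (symbols), with mean and SD as black bars. The junction probes A_43_P11442 and A_44_P214040 lie close together around -1.04 and -1.02, while the probes on the expressed sequence tag spread from -6.18 to 0.73.

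Calr encodes a lectin chaperone of the endoplasmic reticulum that also folds many other glycoproteins. Its probe A_44_P300506 (rn4 chr19:24967507-24967566) gave p75High levels of 14.30, 14.53, 14.27 and 12.62 and p75Low levels of 14.22, 13.66, 12.13 and 13.37. The log2 ratios were 0.08, 0.87, 2.14 and -0.76, with a mean of 0.58 ± 1.23 and an adjusted p of 0.673. Calr was high in 3 p75High samples and lower in the replicate 4 sample, and the populations overlapped. Its 95% interval of -0.88 to 2.05 allows a change in either direction.

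Tapbp encodes tapasin, which bridges the class I molecule to the transporter. It was read by A_42_P698972 (rn4 chr20:5111712-5111882), at 9.71, 9.32, 10.501 and 10.85 in p75High and 10.27, 10.003, 10.05 and 11.90 in p75Low. Its ratios were -0.55, -0.68, 0.45 and -1.06, a mean of -0.46 ± 0.64 with an adjusted p of 0.618. The p75Low level was the higher in 3 of 4 pairs. With a 95% interval of -1.42 to 0.50, a fall of the size seen for B2m is within the range that the data allow.

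The transporter subunits Tap1 and Tap2 both varied widely between replicates. Tap1 (A_44_P451916, rn4 chr20:4792827-4793962) had p75High levels of 6.26, 6.67, 6.18 and 9.63 and p75Low levels of 7.57, 7.77, 8.30 and 6.83. Its p75High signal in replicate 1 was not well above background. In replicates 2 and 3 it was marked well above background but lay near the same level, so the 3 negative ratios rest on dim p75High signals. The ratios of -1.31, -1.10, -2.12 and 2.80 averaged -0.43 ± 2.20, with an adjusted p of 0.855. Replicate 4 stood apart from the others and went the other way. Without that replicate the mean was -1.51, with an adjusted p of 0.357, and without replicate 3 it was 0.13. No direction can be given for Tap1.

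Tap2 (A_42_P797381, rn4 chr20:4770747-4770806) had p75High levels of 8.60, 8.77, 9.42 and 9.81 and p75Low levels of 8.69, 12.26, 11.54 and 9.35. The ratios were -0.09, -3.49, -2.13 and 0.45, a mean of -1.31 ± 1.83 with an adjusted p of 0.529. The p75Low level stood well above p75High in replicates 2 and 3 and close to it in replicates 1 and 4. Both transporter genes had negative ratios in replicates 1 to 3 and a positive one in replicate 4.

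**Figure D3:**
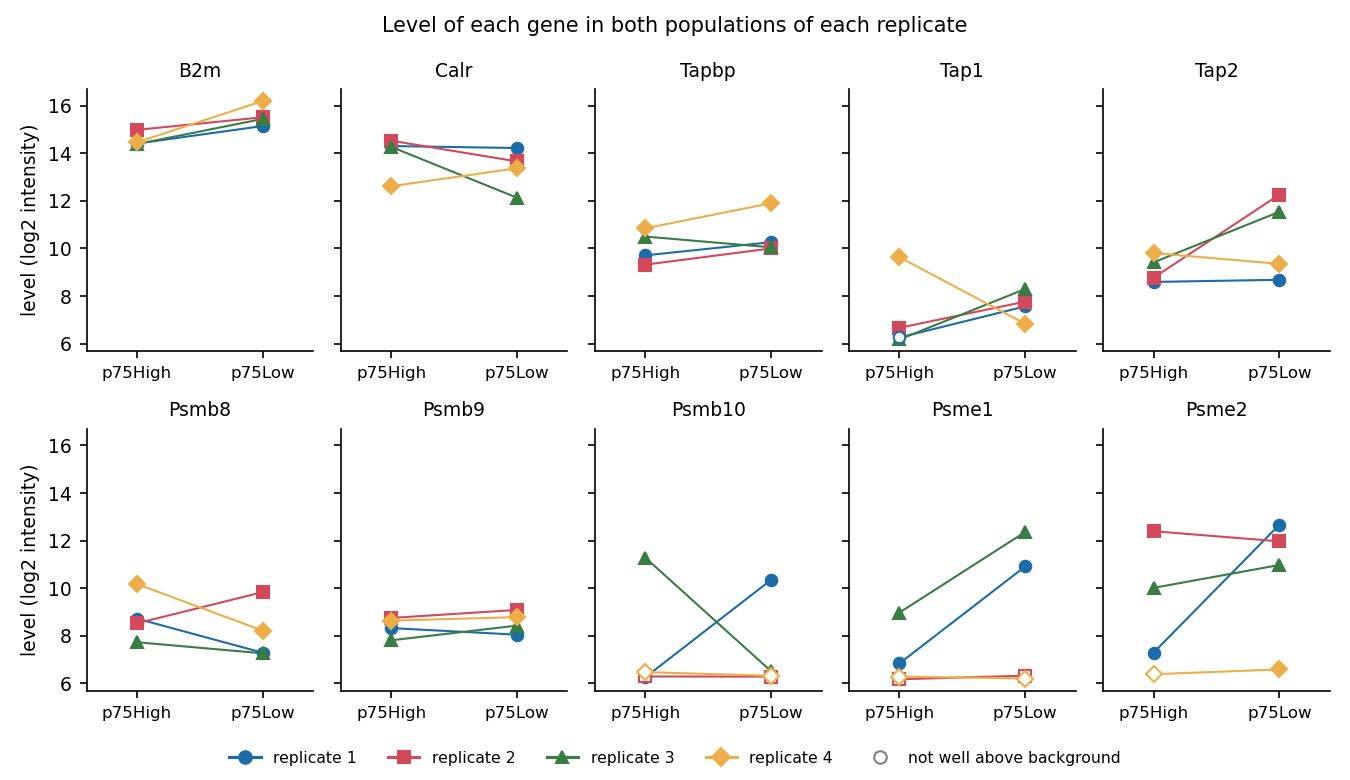
Level of each of the 10 genes as log2 intensity in p75High and p75Low, with a line joining both populations of a replicate; open symbols mark signals not well above background. The B2m lines all rise towards p75Low without overlap of the populations, while each other gene has lines running in both directions. For Psme1 this holds only through replicate 4, where both symbols are open. Levels are not comparable between genes, which are read by different probes.

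Psmb8, Psmb9 and Psmb10 encode the catalytic subunits of the immunoproteasome. Psmb9 had the smallest spread of the 8 genes tested. Its probe A_44_P301963 (rn4 chr20:4806341-4806400) read 8.33, 8.75, 7.81 and 8.64 in p75High and 8.05, 9.09, 8.43 and 8.79 in p75Low. The ratios of 0.28, -0.34, -0.62 and -0.15 averaged -0.21 ± 0.38, an SD larger than that of only 14.0% of all genes tested. The adjusted p was 0.781, and the 95% interval of -0.995 to 0.58 bounds the difference more tightly than for any other gene of the group.

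Psmb8 (A_44_P182020, rn4 chr20:4787980-4788039) read 8.72, 8.53, 7.73 and 10.18 in p75High and 7.29, 9.84, 7.27 and 8.22 in p75Low. Its ratios were 1.43, -1.31, 0.47 and 1.96, a mean of 0.64 ± 1.44 with an adjusted p of 0.684. The p75High level was the higher in 3 of 4 pairs, and the populations overlapped.

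Psmb10 (A_44_P152144, rn4 chr19:35777711-35777770) was well above background in replicates 1 and 3 only, in each channel, and was not tested. It read 6.26, 6.29, 11.29 and 6.48 in p75High and 10.36, 6.29, 6.51 and 6.32 in p75Low, so a strong signal appeared once in each population. The ratios were -4.10, 0.01, 4.77 and 0.15. The p75High signal of replicate 1 and the p75Low signal of replicate 3 were marked well above background. Both lay near the levels of the unmarked replicates, so the ratios of replicates 1 and 3 each set a strong signal against a dim one. Replicates 1 and 3 pointed in opposite directions, and the mean of 0.21 ± 3.62 does not describe any replicate.

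Psme1 and Psme2 encode the alpha and beta subunits of the PA28 cap, which opens the proteasome. Psme1 (A_43_P11888, rn4 chr15:33714566-33714852) was well above background in replicates 1 and 3 only, in each channel, and was not tested. It read 6.84, 6.18, 8.98 and 6.29 in p75High and 10.92, 6.33, 12.37 and 6.21 in p75Low. Where it was read it was higher in p75Low, with ratios of -4.08 and -3.39. The ratios in replicates 2 and 4, where neither channel was above background, were -0.15 and 0.09.

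Psme2 (A_44_P554698, rn4 chr15:33724194-33725273) read 7.29, 12.40, 10.02 and 6.39 in p75High, with replicate 4 not well above background, and 12.67, 11.97, 10.98 and 6.59 in p75Low. Its ratios of -5.38, 0.43, -0.96 and -0.20 averaged -1.53 ± 2.63, with an adjusted p of 0.583 and a 95% interval of -4.39 to 1.33. The mean rested mostly on replicate 1, and the levels spanned 6.01 log2 units within p75High and 6.08 within p75Low. The file lists predicted transcripts beside the named one for the probes of Psme2 and Calr (2 each) and of Tap2, Psme1 and Psmb10 (1 each), and whether these are near-identical copies that share signal was not tested. Both PA28 genes were thus lowest in p75High relative to p75Low in replicate 1.

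The array-by-array medians over the 8 tested genes were -0.32, -0.61, -0.79 and -0.17 in replicates 1 to 4. Over all genes tested these medians were 0.001, -0.015, -0.0001 and -0.022, so negative ratios were about as common as positive ones. Negative ratios were found for 5, 6, 5 and 5 of the 8 genes, which is not read as a shift of the group. Without replicate 1, 2, 3 or 4 the median of the group was -0.31, -0.30, -0.42 or -0.52. Single genes hung on single replicates. The SD of 5 of the 8 genes exceeded 1.14, the median SD of all genes tested.

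These genes share positions in the genome that the choice of genes did not use. In the RefSeq gene order of the rat assembly GRCr8, Tap2, Psmb8, Tap1 and Psmb9 stand next to each other in that order, inside the MHC between the class II genes RT1-DOb and RT1-DMb. Psme1 and Psme2 are separated by 1 gene, Emc9. Neighbours differed in sign on some arrays and shared it on others. In replicate 1 Psmb8 had 1.43 beside -1.31 for Tap1. In replicate 2 all were negative, with -3.49 for Tap2, -1.31 for Psmb8, -1.10 for Tap1 and -0.34 for Psmb9. In replicate 4 Psmb8 had 1.96 and Tap1 2.80, beside 0.45 for Tap2 and -0.15 for Psmb9. Whether neighbours were more alike than other genes was not tested.

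Many interferon-induced genes carry a response element in the promoter to which IRF factors bind. The pattern GAAA, any 2 bases, GAAA was searched on both strands in the 250 bases before each RefSeq start in GRCr8, overlapping matches counted. It was found for 6 of these 10 genes (60%) and for 1140 of 33469 promoters in all (3.41%). The matches are shown with flanking bases, in the direction of the gene, with the pattern in capitals. They are given as a sequence feature. The choice of genes used no sequence, but it drew on a pathway with genes that interferon-gamma induces, so the share is not independent of that choice.
B2m, chr3:129549168-129549201, + strand: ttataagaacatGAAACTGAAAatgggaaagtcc
Tap1, chr20:4668643-4668676, - strand: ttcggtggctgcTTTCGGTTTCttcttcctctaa
Tap2, chr20:4652316-4652349, - strand: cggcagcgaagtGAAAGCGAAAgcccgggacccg
Tapbp, chr20:4967878-4967915, - strand: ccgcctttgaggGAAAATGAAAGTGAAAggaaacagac
Psmb10, chr19:50743293-50743377, - strand: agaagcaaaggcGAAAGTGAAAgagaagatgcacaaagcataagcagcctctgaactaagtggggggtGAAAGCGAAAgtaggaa
Psme2, chr15:33052783-33052816, - strand: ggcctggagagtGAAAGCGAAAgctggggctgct
Tap1 holds the pattern on the opposite strand, Tapbp and Psmb10 hold 2 matches each, and the windows of Psmb8, Psmb9, Psme1 and Calr hold none. A match describes letters in a window and is not a measured binding site.

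Of the regulators of the pathway reported here, 0 of 13 passed in limma, 3 were lower and 0 higher at an unadjusted p under 0.05, and the median was -0.23. Ifngr1, a subunit of the interferon-gamma receptor, had ratios of -4.11, -4.12, -2.24 and -3.84, a mean of -3.58 ± 0.90 (SD, n = 4) with an adjusted p of 0.0667. It was lower in p75High on every array but did not pass. Over 14 settings its adjusted p ran from 0.0473 to 0.264, under the threshold only with the scanner's ratios and with the stricter filter on dim probes. Nfkb1, a subunit of the transcription factor NF-kB, had -3.19 ± 2.27 with an adjusted p of 0.321. Irf1, an interferon-induced transcription factor that acts on class I genes, had 0.09 ± 0.74 with an adjusted p of 0.930. Nlrc5, the class I transactivator, had no tested probe. The microglia and macrophage markers moved in the same direction as Ifngr1, and their part in its ratio was not tested.

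The class I heavy chains and class I-like chains, the partners of B2m, had 24 genes tested, of which 0 passed. At an unadjusted p under 0.05, 5 were lower and 0 higher, and their median was -0.65. RT1-CE16 had ratios of -1.47, -3.55, -0.71 and -2.19, a mean of -1.98 ± 1.21 with an adjusted p of 0.310. RT1-Aw2 had -1.80 ± 1.18 with an adjusted p of 0.323, but its 4 probes disagreed, with means from -2.09 to -0.04. Genes of this family are near-identical copies, so a probe can read several of them and these are not separate observations.

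Of the other endoplasmic reticulum genes of peptide loading and trimming, 0 of 16 tested passed, and the median was -0.80. The aminopeptidase Erap1, which trims peptides to class I length, had -0.84 ± 0.94 (adjusted p 0.502). The related aminopeptidase Lnpep had -2.28 ± 1.92 (adjusted p 0.372). The chaperone calnexin (Canx) had -1.40 ± 3.87, the disulfide isomerase Pdia3 had 0.36 ± 1.39, and the tapasin-related editor Tapbpl had -0.76 ± 2.37, with adjusted p-values of 0.718, 0.815 and 0.756. Canx in particular ranged from -6.55 to 2.75 over the 4 arrays, wider than any tested gene among the 10.

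The constitutive catalytic subunits, which the immunoproteasome subunits replace, did not pass either (0 of 3). Psmb5, the counterpart of Psmb8, had 0.02 ± 1.68 with an adjusted p of 0.990. Psmb6, the counterpart of Psmb9, had -0.24, -0.81, -1.88 and -1.38, a mean of -1.08 ± 0.71 that was negative on all 4 arrays, with an adjusted p of 0.372. Psmb7, the counterpart of Psmb10, had -1.84 ± 5.32 with an adjusted p of 0.730. The difference between each constitutive subunit and its counterpart was not tested.

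Further proteasome genes had medians close to that of all genes. Of the other core subunits 0 of 13 tested passed (median 0.06), led by Psma5 at 3.12 ± 2.88 and Psma3 at -1.72 ± 1.80, with adjusted p-values of 0.393 and 0.443. Of the regulatory particle genes 0 of 18 passed (median 0.23), with Psmc1 at -1.08 ± 0.79 and Psmc3 at -1.76 ± 2.29, with adjusted p-values of 0.394 and 0.502. The alternative caps Psme3 and Psme4 had -1.32 ± 2.33 and 0.97 ± 2.63, with adjusted p-values of 0.594 and 0.717. Of the cytosolic peptidases, which destroy or trim peptides, 0 of 7 passed (median -0.39). The smallest p there were those of Thop1, at 1.08 ± 0.40 and an adjusted p of 0.312, and Tpp2, at 3.51 ± 2.44 and 0.318. A second Thop1 probe gave -0.12 ± 0.37.

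Interferon-induced genes outside the class I pathway, tested as a comparison, had 0 of 15 that passed and a median of -0.36. The GTPase gene Irgm had -2.51, -2.25, -0.81 and -1.48, a mean of -1.76 ± 0.78 with an adjusted p of 0.246. Ifitm3, which restricts viral entry, had -2.43 ± 2.71 with an adjusted p of 0.453. Of the class II chains and their loading genes, 0 of 6 tested passed, with a median of -2.04. RT1-DMa, which exchanges peptides on class II molecules, had -3.89 ± 2.25, negative on all 4 arrays, and the lysosomal reductase Ifi30 had -2.60 ± 1.83, with adjusted p-values of 0.263 and 0.324.

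The macrophage markers were the comparison with the largest shifts. Csf1r, Ctss, Adgre1, Itgam, Lyz2 and Aif1, genes of macrophage growth, proteolysis, surface and cytoplasm, had log2 ratios of -6.08 ± 0.61, -6.11 ± 0.79, -5.87 ± 0.69, -5.77 ± 0.33, -5.54 ± 0.73 and -5.36 ± 0.62, each with an adjusted p of 0.0262 in limma. For Csf1r, other probes gave -0.25 and 0.41. The ratio of B2m, at -1.02, was far smaller than those of these markers, and the part of macrophage RNA in it was not tested.

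**Figure D4:**
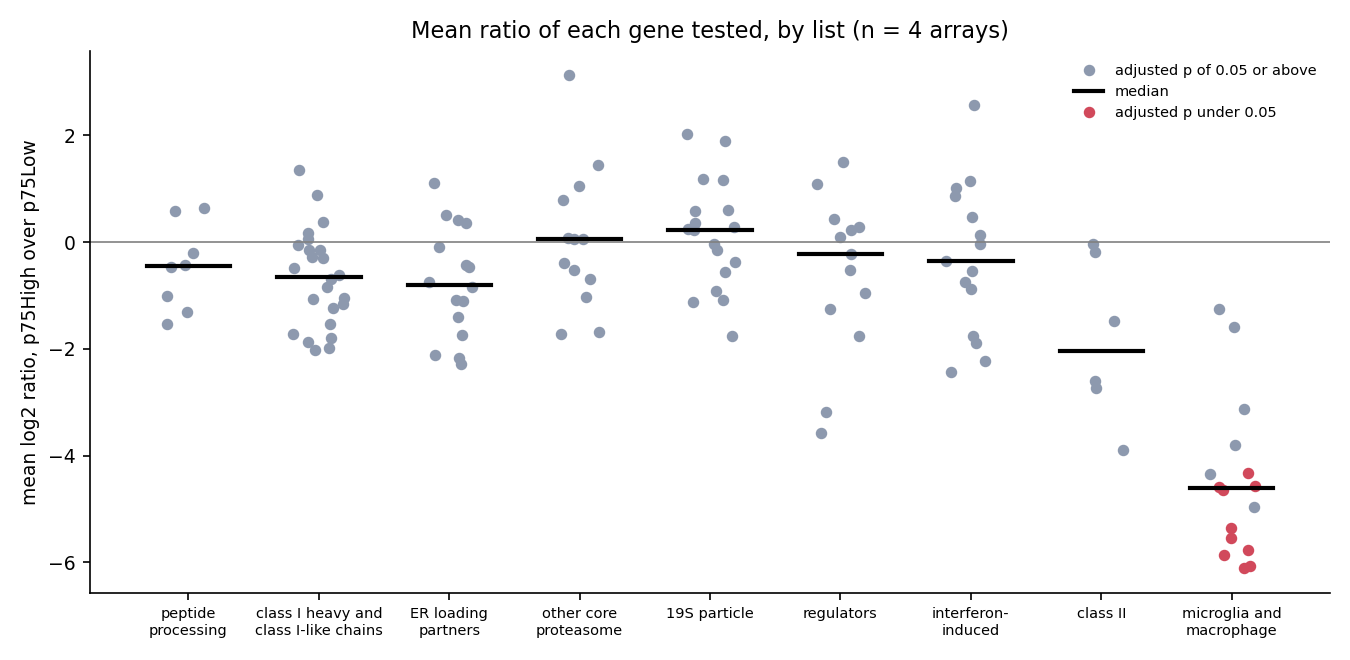
Mean log2 ratio of p75High over p75Low over 4 arrays for each gene tested (points), by list, with the median as a black line; red points passed an adjusted p of 0.05. The class I peptide processing genes have a median of -0.45 and no red point, and the microglia and macrophage markers have a median of -4.62 with 10 red points.

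Other marker lists moved less uniformly. Fibroblast markers had 0 of 7 tested that passed (median -0.89), with summed levels of 59770 to 84640 in p75High and 13310 to 34790 in p75Low. Of these 7, 4 had means below 0, and the means ran from -2.71 to 4.80, so the list had no common direction. Of the lymphocyte markers 1 of 8 was lower, Cd4, which rat macrophages also express (-5.71 ± 0.57, adjusted p 0.0262 in limma), and the list's median was 0.04. Dendritic cell markers had 0 of 2, endothelial markers 0 of 4, stress genes 0 of 8 and housekeeping genes 0 of 9 that passed, with medians of -0.11, 1.19, 0.91 and -0.08. The housekeeping means ran from -1.7 to 2.4, and 5 of the 9 were below 0. Among them Actb had -1.30 ± 0.73, negative on all 4 arrays, with an adjusted p of 0.325 in limma. Its other probe gave -1.54, so a ratio of the size of B2m also occurred in a housekeeping gene. Of the ensheathing and Schwann cell markers 1 of 14 was higher, Ngfr, and the median was 1.57.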

How the data were processed

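Each of 4 Agilent two-colour arrays (design 014879, 1 slide) was hybridised with cDNA of both populations of 1 replicate, 250 ng each, after PCR-based SuperAmp amplification, per the labels' protocols. Such amplification from few cells can add spread between replicates. The scanner files hold intensities as read by Feature Extraction 10.5.1.1, per the file headers (10.5 in the submitters' processing notes), with rn4 coordinates. The deposited value table holds the scanner's log10 ratios, Cy5 over Cy3, by the authors; it differed from the files by at most 0, and its median was 0 on every array.

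Mean intensities were corrected with normexp (offset 50) and normalised within arrays by loess (span 0.3) in limma 3.58.1 (R 4.3.3). Of 173516 spot readings, 1112 outliers were left out; 0 were saturated. Repeat spots were averaged, and 24872 of 41012 probes were kept, those that the scanner marked well above background in Cy5 on 3 or more of the 4 arrays or in Cy3 on 3 or more. The brightest kept probe stood for its gene. The log2 ratio was tested against 0 with lmFit and eBayes, two-sided, with Benjamini-Hochberg adjustment over all genes tested at 0.05. Levels are per-channel log2 intensities after Aquantile scaling. Fits were tested on simulated data. The number of arrays limits the precision.

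Probe names were updated through RefSeq tables: 10835 matched by accession, 5196 by symbol and 3478 by older symbol, while 21503 kept the name of the file. Genes were counted by name, and many kept names are those of expressed sequences, so a gene can count under several names. The shares over all genes are counted in the same way. All 10 genes matched the promoter table of GRCr8. The design text calls the samples paired, and the ratio within an array is that pairing; deviations of both channels from their means correlated at 0.124, 0.0598, 0.0676 and 0.261 within arrays, against at most 0.0517 between arrays. Beyond the 10 genes, those past the threshold in each list were named (up to 6 by size), otherwise those with the smallest p (at most 2), plus constitutive proteasome subunits, caps, Irf1, Canx, Pdia3, Tapbpl, Erap1 and Ngfr. The genes and lists were chosen with earlier results of these data known; 1 gene of a list is not reported here. Alternatives were other background correction, normalisation, filters and probe rules, the scanner's ratios, no pairing, and leaving out each replicate.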

Additional observations from a re-analysis of the deposited data

Results flagged for a closer look

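Among 39 sets of 4 values examined for the 10 genes (the ratio and both levels of each probe), 8 had 1 sample far from the other 3 by Dixon's test. Its nominal rate of about 1 in 20 holds for independent, normally distributed sets. These sets are not independent, since each ratio is the difference of both levels and the B2m junction probes overlap. The share among all probes of the array was not computed, so the count does not show an excess in these genes. For B2m, the p75High level of replicate 2 on A_44_P214040 was 14.98 with the nearest at 14.46. On A_44_P535612, the B2m ratio of replicate 3 was 0.73 with the nearest at -1.83, and the p75High level of replicate 4 was 7.60 with the nearest at 10.78. The Tap1 level in p75High of replicate 4 was 9.63 with the nearest at 6.67. The Tapbp level in p75Low of replicate 4 was 11.9 with the nearest at 10.27. Psmb10 stood out in p75High of replicate 3 at 11.29 and in p75Low of replicate 1 at 10.36, with the nearest at 6.48 and 6.51. The Calr level in p75High of replicate 4 was 12.62 with the nearest at 14.27.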

How the results depend on the processing

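None of the 8 tested genes passed the threshold in limma under any of the 13 alternatives; Psmb10 and Psme1 were tested only when dim probes were kept, and did not pass. The ratio of B2m was below 0 throughout, from -1.39 to -0.66, with adjusted p-values of 0.191 to 0.571, and its unadjusted p was no longer under 0.05 with median centring, with the scanner's ratios and without replicate 1, 3 or 4. Tap2, Tapbp and Psme2 also kept their direction, as did Psmb8 and Calr on the other side, but their sizes hung on single replicates: Tap2 was -0.59 without replicate 2, Psme2 -0.25 without replicate 1, Tapbp -0.76 without replicate 3 and -0.26 without replicate 4, Calr 0.066 without replicate 3 and 1.03 without replicate 4, and Psmb8 0.37, 1.29 and 0.20 without replicate 1, 2 and 4. Psmb9 turned to 0.0063 with median centring, and Tap1 to 0.13 without replicate 3, in a range of -1.51 to 0.13 over the replicates left out, with an unadjusted p under 0.05 without replicate 4. The median of the tested genes was -1.02 with every kept probe on its own, where B2m counts 4 times. Genes past the threshold numbered 166, against 265 with the scanner's ratios, 89 when dim probes were kept and 307 with no replicate block; treating the channels as unpaired changed no call among the 8 tested genes or Ifngr1, and its effect on the named markers was not computed. Leaving out replicates gave 0 to 0. The pathway lists held 0 such genes, against 1 with the scanner's ratios and 1 with the stricter filter, Ifngr1 in both, at adjusted p-values of 0.0473 and 0.0499; under the other alternatives its adjusted p ran up to 0.264. The cause of these changes was not tested. With 4 arrays, a wide spread between replicates and dim signals for Psmb10 and Psme1, differences of several fold were not detectable for most of these genes.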
